A study of Homo sapiens with 12 samples.

Results

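The transcripts of 10 genes of the IL6 family and the colony stimulating cytokines were followed through 12 RNA-seq libraries of T24, an established cell line from a human bladder carcinoma. The genes were taken by gene name from the deposited gene tables, and all 10 were found among the 60504 entries. They comprised the ligands IL6, LIF and IL11, the colony stimulating factors CSF1, CSF2 and CSF3, the cytokine IL15, and the receptor chains IL6ST, OSMR and IL7R. The study asked how the level of U11, a small nuclear RNA of the minor spliceosome, relates to gene expression in these cells.

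For the knockout comparison, 2 untreated libraries served as controls for 2 libraries labelled U11 knockout, all of the same series. Per the methods, the knockout cells were made with Cas9 and a pair of guides in a pX330 plasmid and selected with puromycin, and clonal lines with the best knockout efficiency were kept. No source states from how many clones the 2 libraries came. For the overexpression comparison, 2 other untreated libraries served as controls for 6 libraries labelled U11 overexpression. The 6 libraries carried the numbers 79, 86 and 87, with 2 libraries each, and the labels do not say what these numbers stand for. They are called line labels here. Per the methods, overexpressing cells were stably transfected with a pcDNA-U11 plasmid and selected as single clones. No source states that libraries of a group came from separate cultures, so P values measured only the spread between these libraries.

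The IL6 family signals through IL6ST, also called gp130, a receptor chain that pairs with a ligand-specific partner such as IL6R, LIFR, IL11RA or OSMR. Binding of the ligand activates JAK kinases and the transcription factor STAT3. Colony stimulating factors drive the growth and maturation of granulocytes and macrophages, and carcinoma cells can make them together with IL6, often after stimulation by interleukin 1 and NF-kappa B. IL7R is the receptor chain for IL7 and TSLP in lymphocytes, and IL15 supports natural killer cells and T cells.

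All 10 members are protein-coding genes. In the deposited tables (hg38) IL7R lies at chr5:35852695-35879603, OSMR at chr5:38845858-38945596, IL6ST at chr5:55935095-55994993 and CSF2 at chr5:132073790-132076170. IL6 lies at chr7:22725884-22732002, LIF at chr22:30240447-30246851, IL11 at chr19:55364389-55370463, CSF1 at chr1:109910242-109930992, CSF3 at chr17:40015361-40017813 and IL15 at chr4:141636599-141733987. RefSeq promoter sequences (GRCh38.p14) were matched for 6 of the 10 genes. The 250 bases before the RefSeq gene start are shown for 2 ligands and 1 receptor whose differences were among those that passed the adjusted test, and for IL6. They lie at chr7:22726950-22727199 (plus strand, IL6), chr19:55370464-55370713 (minus strand, IL11), chr5:132073539-132073788 (plus strand, CSF2) and chr5:35856641-35856890 (plus strand, IL7R). Capitals mark matches to 4 motifs of factors known to act on cytokine genes, searched on both strands.
IL6: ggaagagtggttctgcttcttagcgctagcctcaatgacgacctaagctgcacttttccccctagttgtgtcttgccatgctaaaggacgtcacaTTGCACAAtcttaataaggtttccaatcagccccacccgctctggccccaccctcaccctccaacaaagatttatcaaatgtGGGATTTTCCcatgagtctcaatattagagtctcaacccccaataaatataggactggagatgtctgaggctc
IL11: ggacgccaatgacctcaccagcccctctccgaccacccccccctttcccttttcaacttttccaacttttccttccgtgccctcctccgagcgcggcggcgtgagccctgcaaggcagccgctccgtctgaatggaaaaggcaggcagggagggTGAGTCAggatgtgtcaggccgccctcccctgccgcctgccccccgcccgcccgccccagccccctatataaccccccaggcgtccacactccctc
CSF2: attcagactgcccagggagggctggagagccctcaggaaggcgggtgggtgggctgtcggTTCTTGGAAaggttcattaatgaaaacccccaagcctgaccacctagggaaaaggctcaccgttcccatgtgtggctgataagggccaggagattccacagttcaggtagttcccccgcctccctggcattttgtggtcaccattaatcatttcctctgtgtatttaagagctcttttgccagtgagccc
IL7R: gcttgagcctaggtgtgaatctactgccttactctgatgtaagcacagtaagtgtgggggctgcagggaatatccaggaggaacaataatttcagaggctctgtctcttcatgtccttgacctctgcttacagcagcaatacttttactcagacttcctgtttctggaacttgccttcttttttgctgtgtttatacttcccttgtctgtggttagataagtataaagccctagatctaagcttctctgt

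The IL6 window held a match to the kappaB consensus 73 to 64 bases before the start and a C/EBP match (TTGCNNAA) 155 to 148 bases before it. The IL11 window held an AP-1 match (TGANTCA) 96 to 90 bases before the start. The CSF2 window held a STAT match (TTCNNNGAA) 190 to 182 bases before the start, and the IL7R window held none of the 4 patterns. Among all 35116 promoter windows of this length, 5.21% held the kappaB consensus, 6.57% the AP-1 pattern, 6.57% the STAT pattern and 9.05% the C/EBP pattern. Of the other members with a sequence, OSMR held a C/EBP match and IL6ST held none of the 4 patterns. A match describes letters in the window and not binding.

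Some features of the whole series bear on these genes. U11 went against the knockout label: its summed TPM was 21.35 and 23.82 in the controls and 31.64 and 37.4 in the libraries labelled U11 knockout. It was 0.03 and 0.62 in the overexpression controls, 0.18 and 0.41 in line label 79, 3.98 and 3.72 in line label 86, and 61.86 and 53.6 in line label 87. The sum covered 2 entries named U11. In the knockout series 1 entry held all of it. The other entry was at 0 TPM there and held 3.87 and 3.62 TPM in line label 86 and 60.22 and 52.17 in 87. By quantitative PCR the study reported decreased U11 in its knockout cells. Directions below therefore refer to libraries by label. The 10 most abundant genes took 45.5% to 49.6% of TPM in the knockout series and 7.1% to 7.6% in the overexpression series, so TPM levels were not compared by test across the series. Keratins KRT7, KRT8, KRT18 and KRT19 were abundant in every library, while EPCAM, of the same epithelial list, lay between 0.09 and 2.32 TPM. The uroplakins UPK1A, UPK1B, UPK2 and UPK3A, which mark differentiated urothelium, stayed at or below 0.437 TPM. GATA3 and PPARG, of the same urothelial list, were present in every library, at 2.38 to 17.41 and 18.88 to 54.55 TPM.

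Of the 10 genes, IL7R had the highest mean TPM in both sets of controls, and the receptor chains and the ligands IL11 and LIF stood above the colony stimulating factors. In the controls of the overexpression series the order was IL7R at 151.4, IL11 at 118.2, LIF at 69.99, OSMR at 67.8, IL6ST at 52.8, CSF1 at 11.25, IL6 at 6.386, IL15 at 5.822, CSF3 at 2.152 and CSF2 at 0.0908 TPM. LIF and OSMR overlapped in that order, and the other neighbours did not overlap between the 2 controls. In the controls of the knockout series the mean TPM was 56.67 for IL7R, 48.25 for IL6ST, 47.3 for IL11, 44.89 for LIF, 24.32 for OSMR and 16.12 for IL6. It was 5.146 for CSF1, 3.623 for CSF3, 2.618 for CSF2 and 1.332 for IL15. There IL7R overlapped IL6ST, IL6ST overlapped IL11, CSF1 overlapped CSF3, and CSF3 overlapped CSF2. TPM is scaled to transcript length, so these levels can be set beside each other within a library.

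**Figure D1:**
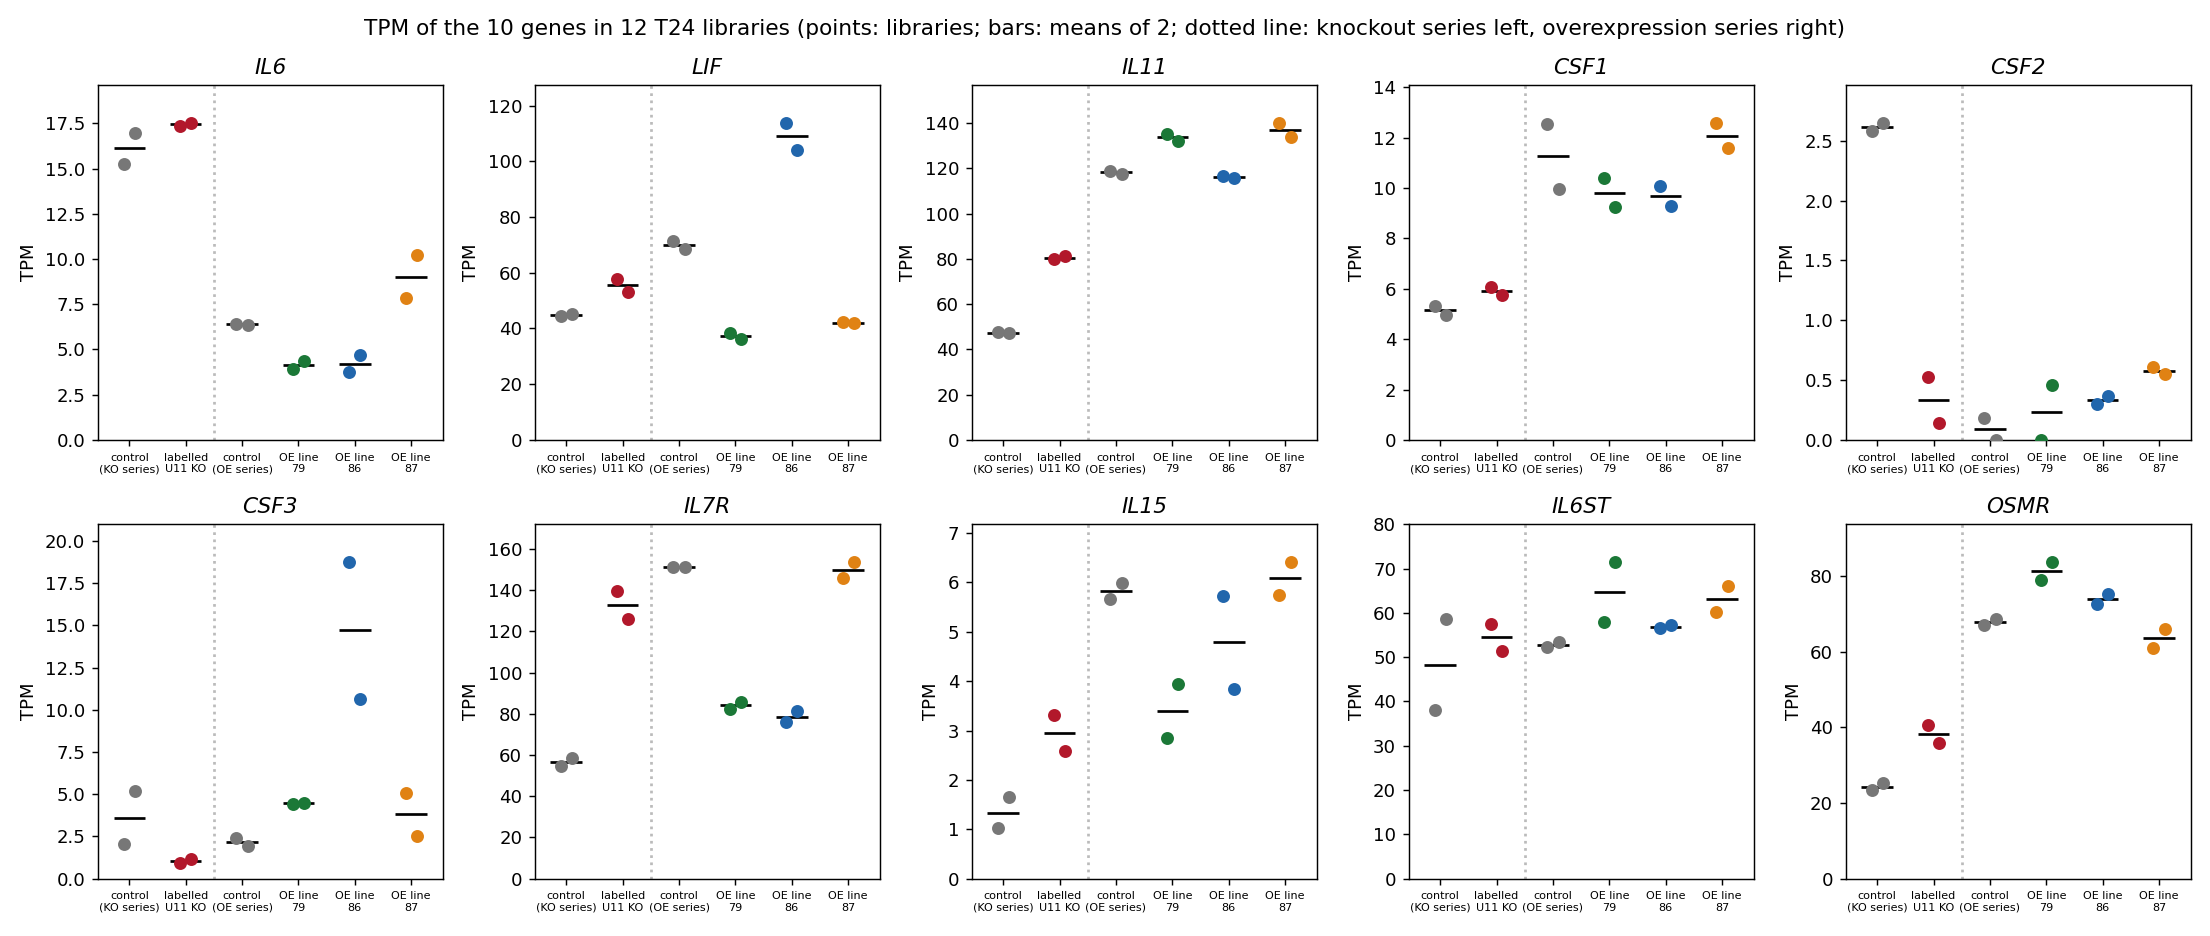
TPM (linear axis from 0, a separate scale for each gene) of the 10 genes in the 12 libraries, with points for libraries and bars for the mean of 2 libraries per group. IL7R lay at 126.06 to 139.79 in the libraries labelled U11 knockout against 54.54 to 58.8 in their controls, and LIF lay at 104.1 to 113.77 in line label 86 against 68.59 to 71.4 in the overexpression controls.

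In the knockout comparison, 4 of the 10 genes were up-regulated under the U11 knockout label (IL11, IL7R, IL15 and OSMR) and 2 were down-regulated (CSF2 and CSF3). A gene was called at P under 0.05 and a difference of at least 1.5-fold, the thresholds of the study, in a limma fit of log2(TPM + 1). The share of all 14356 tested genes called was 11.8%, with 8.61% higher and 3.15% lower. With P adjusted over all tested genes and the same fold, 4 members were called (IL11, CSF2, IL7R and OSMR) against 6.85% of all genes. CSF2 reached 1 TPM in the controls only, so it entered the test through the group where it was high. Without it, 5 of 9 members were called (4 higher and 1 lower), and 3 with adjusted P. The adjusted calls rested on the filter and on both labelled libraries: with no filter the adjusted P of IL11, CSF2, IL7R and OSMR ran from 0.0754 to 0.140, and without either labelled library from 0.114 to 0.213. For 9 of the 10 members every value of one group lay above every value of the other, which held for 60.2% of all genes. The median difference of the 10 members was 0.25 on the log2 scale, and that of all genes was 0.108.

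Among the ligands, IL11, a gp130 cytokine known for its roles in bone and in stromal and tumor cells, had a TPM of 47.57 and 47.03 in the controls and of 79.73 and 81.39 in the libraries labelled U11 knockout. Both labelled libraries were higher than both controls. The difference was 0.76 ± 0.08 (SE, n = 2 against 2) in log2(TPM + 1), a ratio of means of 1.703, with an adjusted P of 0.01995. LIF, which keeps stem cells undifferentiated and acts through LIFR and gp130, had a TPM of 44.47 and 45.3 against 57.87 and 53.06. Its difference of 0.30 ± 0.09 (SE) did not pass (adjusted P = 0.121), and the 95% interval ran from 0.05 to 0.54. IL6, a mediator of the acute phase response, differed by 0.11 ± 0.11 (SE), with a TPM of 15.25 and 16.98 in the controls and 17.36 and 17.52 in the labelled libraries.

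Of the colony stimulating factors, CSF2 and CSF3 were called lower under the knockout label, and CSF1 was not called. CSF2, or GM-CSF, a growth factor of granulocytes and macrophages, had a TPM of 2.58 and 2.65 in the controls and of 0.53 and 0.14 in the libraries labelled U11 knockout. Both labelled libraries were lower than both controls, by 1.45 ± 0.18 (SE) on the log2 scale. Its adjusted P of 0.0231 carries little weight, since the minimum of 1 TPM was met through the controls alone and so set the direction. CSF3, or G-CSF, which drives neutrophil production, had a TPM of 2.07 and 5.17 in the controls and of 0.95 and 1.18 in the labelled libraries. The 2 controls were far apart from each other, and the difference of -1.08 ± 0.35 (SE) passed before adjustment only (adjusted P = 0.125). CSF1, or M-CSF, the macrophage factor, differed by 0.17 ± 0.12 (SE), with a TPM of 5.33 and 4.96 against 6.07 and 5.77. In bulk RNA, fewer cells expressing a gene and less RNA per cell cannot be told apart.

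The receptor chains IL7R and OSMR were up-regulated under the knockout label. IL7R had a TPM of 54.54 and 58.8 in the controls and of 139.79 and 126.06 in the labelled libraries, with no overlap. Its difference of 1.21 ± 0.10 (SE) had an adjusted P of 0.0112, and the ratio of means was 2.345. OSMR, the partner of gp130 in the oncostatin M receptor, had a TPM of 23.3 and 25.35 against 40.53 and 35.72, a difference of 0.63 ± 0.11 (SE, adjusted P = 0.0448). OSMR overlaps RICTOR on the opposite strand, and no source states whether reads were counted by strand. The mean TPM of RICTOR was 11.71 in the controls and 16.79 in the labelled libraries. IL6ST had a TPM of 37.97 and 58.53 in the controls and of 57.5 and 51.46 in the labelled libraries, which overlapped, and its difference was 0.20 (95% interval -0.37 to 0.77). IL6ST also shares its locus with the opposite-strand entry CTD-2031P19.4, with mean TPM of 63.68 and 64.67 in the 2 groups.

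IL15 had a TPM of 1.02 and 1.65 in the controls and of 3.31 and 2.59 in the libraries labelled U11 knockout. The difference of 0.77 ± 0.19 (SE) passed before adjustment only (adjusted P = 0.0798). Single libraries decided some of these calls. The CSF3 call was lost without the second control (-0.57) or without either labelled library (-0.998 and -1.158), and the IL15 and OSMR calls were lost without the first control (0.57 for both) or without the first labelled library (0.64 and 0.54). OSMR was also under 1.5-fold with median ratio scaling (0.52), which brought the median of all genes from 0.108 to 0.012. Leukocyte markers moved in the same comparison: the summed TPM of 7 markers was 4.833 to 6.057 in the controls and 0.607 to 0.692 in the labelled libraries. That sum was mostly CD74 (5.46 and 4.35 against 0.25 and 0.29), and PTPRC stayed at or below 0.07 TPM in all 4 libraries. The endothelial marker CDH5 was at 4.85 and 4.75 against 0.03 and 0.03 TPM, with KDR at or below 0.01. The summed TPM of 5 fibroblast markers was 1.63 to 1.682 in the controls and 2.586 to 3.424 in the labelled libraries, with COL1A1 at 0.75 and 0.82 against 1.95 and 1.64 and with DCN and LUM at or below 0.05. The part of these markers in the cytokine differences was not tested.

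In the overexpression comparison, with the 6 libraries labelled U11 overexpression against the 2 controls, none of the 9 tested members was called by limma, and 1.93% of all 15768 tested genes were. All 9 confidence intervals included 0, so none of the 9 passed P under 0.05 at any fold either. CSF2 was under the minimum of 1 TPM in 2 libraries and was not tested. The 2 controls listed CSF2 at 0.18 and 0 TPM, and it ranged from 0 to 0.61 TPM in the 6 labelled libraries. The groups did not overlap for CSF3 and IL6ST, that is for 2 of the 9 members, and for 9.87% of all genes. IL6ST had a TPM of 52.2 and 53.4 in the controls and a lowest, median and highest TPM of 56.53, 59.05 and 71.54 in the labelled libraries. CSF3 had a TPM of 2.38 and 1.92 in the controls and lay between 2.55 and 18.77 in the labelled libraries, with a difference of 1.21 (95% interval -0.07 to 2.49). The median difference of the 9 members was -0.09, and that of all genes was -0.02.

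The pooled result held line labels that went opposite ways, most clearly for LIF. LIF had a TPM of 71.4 and 68.59 in the controls, 38.39 and 36.13 in line label 79, 113.77 and 104.1 in line label 86, and 42.25 and 41.93 in line label 87. Line label 86 lay above the controls and the other two lay below, without overlap between any pair of groups. The differences from the controls were -0.89 for line label 79 (adjusted P = 0.00154), 0.63 for 86 (adjusted P = 0.0154) and -0.72 for 87 (adjusted P = 0.00593), each ± 0.07 (SE, n = 2 against 2). The call in line label 86 was lost without its first library (0.57, under 1.5-fold). LIF shares its locus with the opposite-strand entry RP1-102K2.8, whose mean TPM was 4.659 in the controls, 2.192 in line label 79, 5.589 in 86 and 2.711 in 87.

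IL7R was lower in line labels 79 and 86 than in the controls. Its TPM was 151.41 and 151.35 in the controls, 82.36 and 85.88 in line label 79, 75.88 and 81.32 in line label 86, and 145.81 and 153.87 in line label 87. The libraries of 79 and 86 lay far below the controls, and those of 87 lay on either side of them. The differences were -0.84 (adjusted P = 0.00124), -0.94 (adjusted P = 0.00295) and -0.02 (adjusted P = 0.939), each ± 0.07 (SE). The 95% interval for line label 87 ran from -0.18 to 0.15.

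IL6 had a TPM of 6.43 and 6.34 in the controls, 3.9 and 4.37 in line label 79, 3.73 and 4.68 in line label 86, and 7.85 and 10.2 in line label 87. The first 2 labels lay below the controls and the last lay above, without overlap. The differences of -0.53, -0.51 and 0.43, each ± 0.15 (SE), were under 1.5-fold in log2(TPM + 1), with adjusted P of 0.0883, 0.211 and 0.209. In mean TPM the ratio of controls to label was 1.544 for line label 79 and 1.519 for 86, and that of 87 to controls was 1.414. With a pseudocount of 0.1, IL6 was called before adjustment in line labels 79 (-0.62, adjusted P = 0.0835) and 86 (-0.60, adjusted P = 0.207).

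CSF3 was highest in line label 86. Its TPM was 2.38 and 1.92 in the controls, 4.43 and 4.5 in line label 79, 18.77 and 10.66 in line label 86, and 5.06 and 2.55 in line label 87. All 6 labelled libraries were above both controls, and both libraries of 86 were above all others. The difference was 2.27 ± 0.32 (SE, adjusted P = 0.0270) in line label 86. It was 0.80 ± 0.32 in line label 79 (adjusted P = 0.194) and 0.56 ± 0.32 in line label 87 (adjusted P = 0.431). The call in line label 79 passed before adjustment only, and leaving out any 1 of its 2 libraries or of the 2 controls ended it (0.69 to 0.90).

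IL15 had a TPM of 5.66 and 5.99 in the controls and of 2.85 and 3.95 in line label 79, a difference of -0.64 ± 0.19 (SE) that passed before adjustment only (adjusted P = 0.0979). It was lost without the first library of line label 79 (-0.46) or the second control (-0.61). IL15 was at 5.73 and 3.84 TPM in line label 86 and at 5.75 and 6.42 in line label 87, and neither difference passed. IL11, CSF1, IL6ST and OSMR were called in no line label. Their differences from the controls ran from -0.02 to 0.21 for IL11, from -0.19 to 0.10 for CSF1, from 0.11 to 0.28 for IL6ST and from -0.09 to 0.26 for OSMR.

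By line label, 4 of the 9 tested members were called in 79 (LIF, IL7R and IL15 lower, CSF3 higher; 7.95% of all genes), 3 in 86 (LIF and CSF3 higher, IL7R lower; 3.6% of all genes) and 1 in 87 (LIF lower; 5.13% of all genes). With adjusted P these counts were 2 in 79 (LIF and IL7R; 5.63%), 3 in 86 (1.37%) and 1 in 87 (2.65%). The 3 comparisons share the same 2 controls. Markers of other cells also differed between line labels: CD74 was at 14.38 and 13.23 TPM in the controls, 3.16 and 3.33 in line label 79, 4.01 and 4.43 in 86, and 10.83 and 9.52 in 87. CDH5 had a TPM of 3.43 and 3.08 in the controls and of 34.09 and 32.24 in line label 79, with VWF at or below 0.06. Their part in the cytokine differences was not tested.

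**Figure D2:**
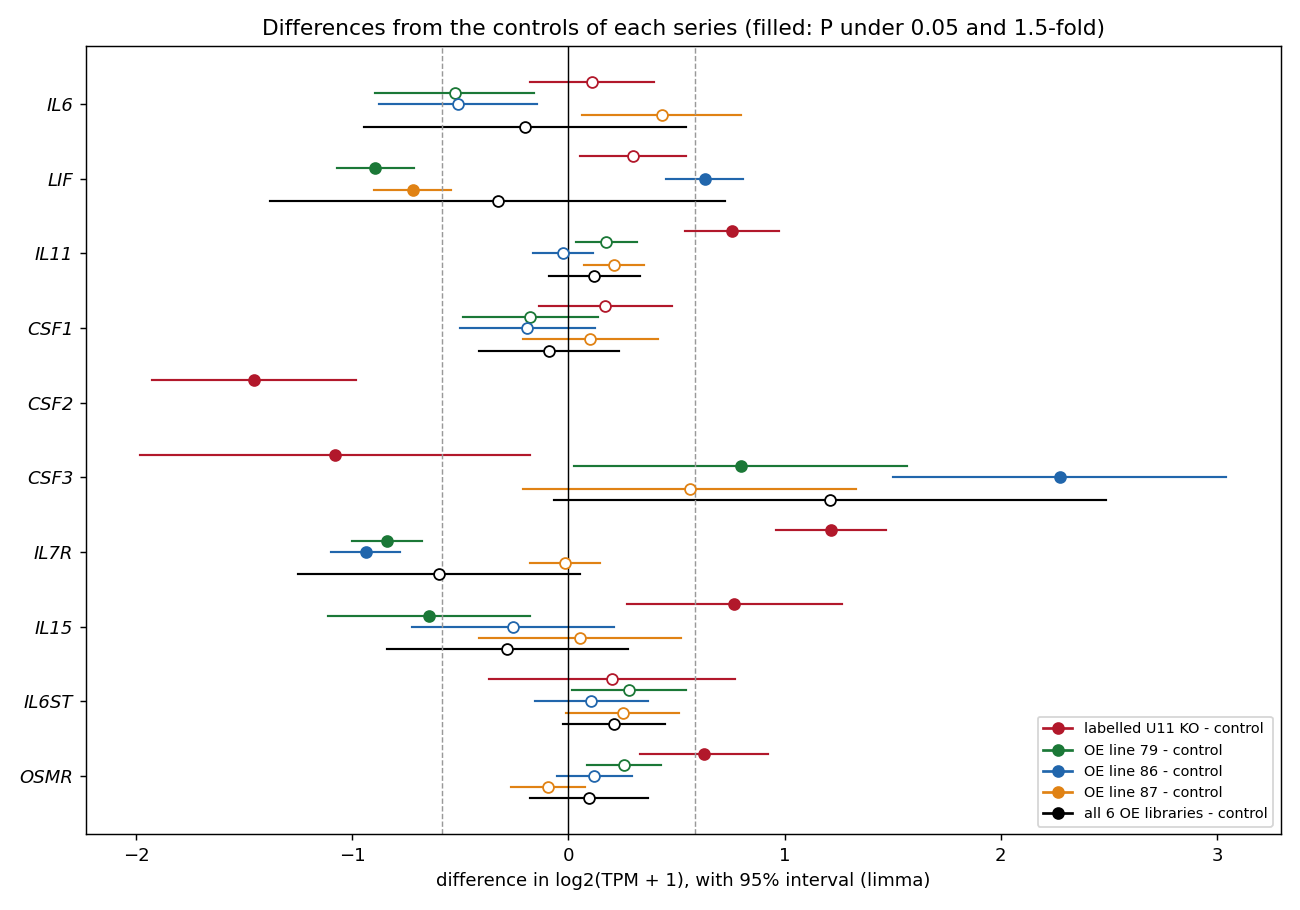
Differences from the controls of the same series in log2(TPM + 1), with 95% intervals from limma, for the libraries labelled U11 knockout, each overexpression line label and the 6 overexpression libraries together. Filled points passed P under 0.05 and 1.5-fold (dashed lines). LIF stood at -0.89, 0.63 and -0.72 in line labels 79, 86 and 87, and IL7R at 1.21 in the knockout comparison.

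The line labels differed from each other, in a moderated F test of the 3 labels, for 5 of the 9 tested members (IL6, LIF, CSF3, IL7R and OSMR) and for 16.0% of all genes at an adjusted P under 0.05. The controls add to the estimate of the spread in this fit. LIF was higher in 86 than in 79 by 1.52 (79 minus 86, -1.52 ± 0.07) and higher in 86 than in 87 by 1.35 ± 0.07 (SE). IL6 was lower in 79 and in 86 than in 87, with 79 minus 87 at -0.96 (adjusted P = 0.0122) and 86 minus 87 at -0.94 (adjusted P = 0.0194). The 79 minus 86 difference of IL6 was -0.02, with a 95% interval from -0.38 to 0.35. IL7R differed in the same pairs, at -0.83 (79 minus 87) and -0.92 (86 minus 87), and 79 minus 86 was 0.10 (95% interval -0.06 to 0.26). CSF3 in 86 exceeded 87 by 1.71 ± 0.32 (SE, adjusted P = 0.0299). OSMR was higher in 79 than in 87 by 0.35 ± 0.07 (SE, adjusted P = 0.0282), which is under 1.5-fold.

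The 8 libraries of the overexpression comparison came from 2 series of library numbers in the sample titles, each with 1 control and 1 library per line label. Within the first and the second series, LIF differed from its control by -0.88 and -0.91 in line label 79, by 0.67 and 0.60 in 86 and by -0.74 and -0.70 in 87. IL7R differed by -0.87 and -0.81 in line label 79. CSF3 differed by 2.548 and 1.996 in line label 86, and IL6 by 0.25 and 0.61 in line label 87. The direction was the same in both series for 9 of the 10 members in each line label, the exceptions being CSF2 in 79, IL15 in 86 (0.02 and -0.53) and IL7R in 87 (-0.05 and 0.02). This count took in CSF2, which was not tested, and pairs near 0 such as IL11 in 86 (-0.027 and -0.023). No share over all genes is given beside it. In the second series traces of leukocyte transcripts appeared in all 4 libraries, with LYZ at 1.55 to 1.68 TPM and at 0 in the first series, and CSF3R at 0.09 to 0.4 TPM and at 0.

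Genes with the most similar profile over these 8 libraries were sought for members that spanned at least 1 log2 unit (IL6, LIF, CSF3 and IL7R). Likeness was the mean absolute difference between log2(TPM + 1) values after each gene was centred on its own mean. For IL7R these were USP18 (0.077), IFIH1 (0.093) and APOL3 (0.099), all known as interferon-inducible genes. IL6 was closest to BAMBI (0.098), ZC3HAV1 (0.11) and NAV2 (0.112), and its distance to IL7R was 0.153, the smallest to any tested member. LIF was closest to SLC7A5 (0.119), an amino acid transporter, then to SLC22A15 (0.126) and APBA2 (0.138). CSF3 had no gene as close, with RP4-613B23.5 at 0.339, the chemokine CXCL5 at 0.379 and HOXD3 at 0.389. RP4-613B23.5 had a mean TPM of 2.046 in line label 86 and of 0 in the other groups. It thus entered the search only through the group where CSF3 was high. LIF and IL7R lay 0.682 apart. The 8 points share 2 controls and 2 library series.

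**Figure D3:**
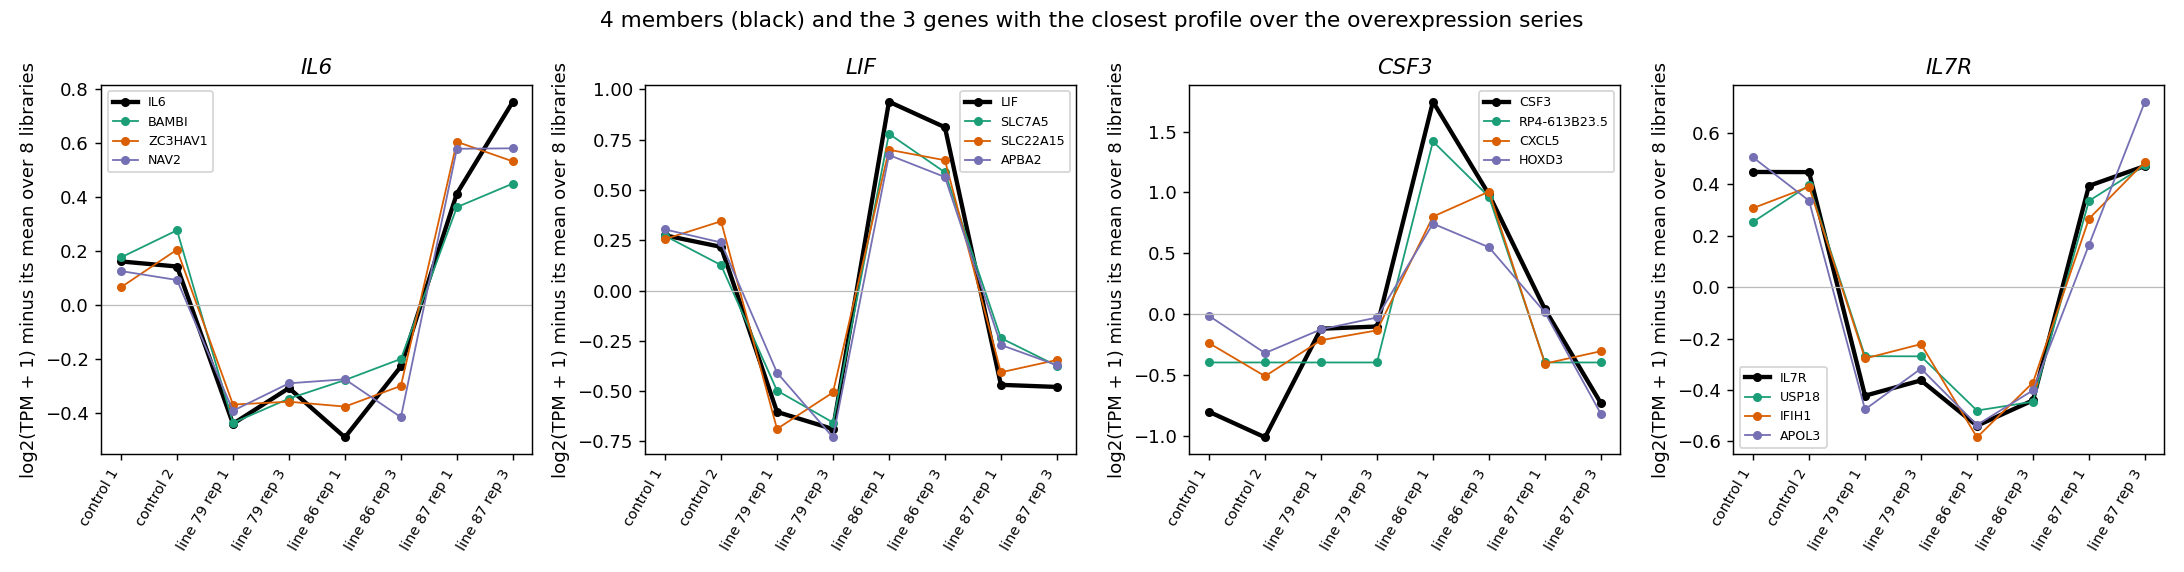
Profiles of IL6, LIF, CSF3 and IL7R (black) and the 3 genes closest to each, as log2(TPM + 1) minus the mean of the gene over the 8 libraries of the overexpression comparison. IL7R and its 3 closest genes (distances 0.077 to 0.099) were low in the libraries of line labels 79 and 86, and LIF and its 3 closest genes were high in those of 86.

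Of the receptors and other ligands of these pathways, most were under the minimum: 14 of 23 genes in the knockout comparison and 13 of 23 in the overexpression comparison. IL6R stayed at or below 0.9 TPM, and CSF1R, CSF2RA, CSF2RB and IL2RB at or below 0.26 TPM in every library. OSM, the ligand of OSMR, stayed at or below 0.07 TPM. Under the knockout label CLCF1, a ligand of the IL6 family, was up-regulated and KITLG, the KIT ligand, was down-regulated. KITLG had a TPM of 23.8 and 30.07 in the controls and of 16.16 and 16.19 in the labelled libraries (-0.69, adjusted P = 0.0555). CLCF1 was at 6.16 and 5.74 against 11.49 and 9.73 TPM (0.74, adjusted P = 0.0448). LIFR was at 6.77 and 8.23 against 12.13 and 11.13 TPM (0.58, adjusted P = 0.0757). IL11RA was at 3.18 and 2.82 against 5.12 and 4.51 TPM (0.54, adjusted P = 0.0782). IL15RA was at 6.2 and 5.14 against 5.11 and 4.86 TPM (-0.15). None of these receptors was called in that comparison.

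LIFR, the partner of gp130 for LIF, had a TPM of 12.81 and 10.74 in the overexpression controls and of 22.95 and 23.65 in line label 79 (0.93 ± 0.11, SE, adjusted P = 0.00524). In the same line label CLCF1 (-0.71) and IL15RA, which presents IL15 (-0.92), were lower. CLCF1 also lay below the controls without overlap, by less than 1.5-fold, in line labels 86 (-0.39, adjusted P = 0.0794) and 87 (-0.42, adjusted P = 0.0460). Its pooled difference was -0.51 (adjusted P = 0.379). Line label 86 had none of 10 called at P under 0.05 and 1.5-fold by limma, beside 3.6% of all genes. Line label 87 had KITLG higher (1.06, adjusted P = 0.00206). The pooled comparison had none of the 10, beside 1.93% of all genes. LIFR differed between the line labels in the F test (adjusted P = 0.00285).

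Of the JAK-STAT signaling genes, 2 of 15 tested were up-regulated in the knockout comparison, JAK2 (0.64, adjusted P = 0.0799) and PIAS3 (0.61, adjusted P = 0.0477), beside 8.61% of all genes. None of 17 was called against the controls in the pooled overexpression comparison or in a line label at P under 0.05 and 1.5-fold by limma. The shares of all genes called there were 1.93% in the pooled comparison and 3.6% to 7.95% by line label. SOCS3 (adjusted P = 0.0169) and SOCS5 (adjusted P = 0.0260) differed between the line labels in the F test, beside 16.0% of all genes. Of 10 tested target genes of gp130 and STAT3, 5 were up-regulated under the knockout label (BCL6, CEBPB, JUNB, MCL1 and TIMP1), beside 8.61% of all genes, and the list median was 0.42 against 0.108 for all genes. TIMP1, an inhibitor of matrix metalloproteinases, rose from 174.45 and 174.94 TPM in the controls to 646.87 and 668.69 in the labelled libraries (1.91 ± 0.07, SE, adjusted P = 0.00276). JUNB was at 16.07 and 15.42 against 39.89 and 39.05 TPM. SOCS3, the feedback inhibitor of gp130, differed by -0.22 ± 0.10 (SE, adjusted P = 0.223). In the overexpression line labels 1 of 10 target genes was called in 79 (BCL3, 0.72), 1 in 86 (CEBPD, -0.59) and none in 87. The shares of all genes called were 7.95%, 3.6% and 5.13%, and neither BCL3 nor CEBPD passed adjustment. MCL1, an inhibitor of apoptosis, differed by less than 1.5-fold in line labels 79 (0.44, adjusted P = 0.00531) and 87 (0.30, adjusted P = 0.0369), and it differed between the line labels (adjusted P = 0.0111).

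Among the inducers of these cytokines, IL1A and IL1B were called in every line label. IL1B, which induces IL6 and the colony stimulating factors, was at 62.35 and 62.71 TPM in the overexpression controls, 25.35 and 27.9 in line label 79, 144.14 and 154.27 in 86, and 121.7 and 125.06 in 87. It was lower in 79 (-1.20) and higher in 86 (1.24) and in 87 (0.97), and IL1A differed in the same directions (-1.17, 1.39 and 1.47). IL1R1 reached 1 TPM only under the knockout label (1.65 and 1.19, against 0.32 and 0.4 in the controls) and in line label 79 (2.63 and 2.79), so it entered the tests through the groups where it was high and is left out of the counts. Of the 8 other tested genes, 3 were called in 79 (IL1A, IL1B and NFKB2 lower; 7.95% of all genes) and 3 in 86 (IL1A and IL1B higher, TNFAIP3 lower; 3.6% of all genes). In 87 there were 5, all higher (IL1A, IL1B, NFKBIA, RELB and TNFAIP3; 5.13% of all genes). RELA and NFKB1 were called in no line label. Under the knockout label IL1A (-1.67), IL1B (-0.66) and NFKBIA (-0.87) were down-regulated, beside 3.15% of all genes. Among 10 factors of cytokine mRNA decay and stability, ZFP36L2 was up-regulated (0.80) and ZC3H12A, an RNase that cleaves the IL6 transcript, was down-regulated (-0.76) in those libraries. The knockout comparison called 11.8% of all genes. ELAVL1 was lower in line label 86 (-1.15, adjusted P = 0.139), beside 3.6% of all genes, and no other factor was called in a line label. ELAVL1 had a TPM of 54.07 and 57.58 in the controls, 24.36 and 24.72 in line label 86, and 25.73 and 52.48 in 87. The pooled overexpression comparison called no gene of the 5 lists at P under 0.05 and 1.5-fold in limma, beside 1.93% of all genes.

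**Figure D4:**
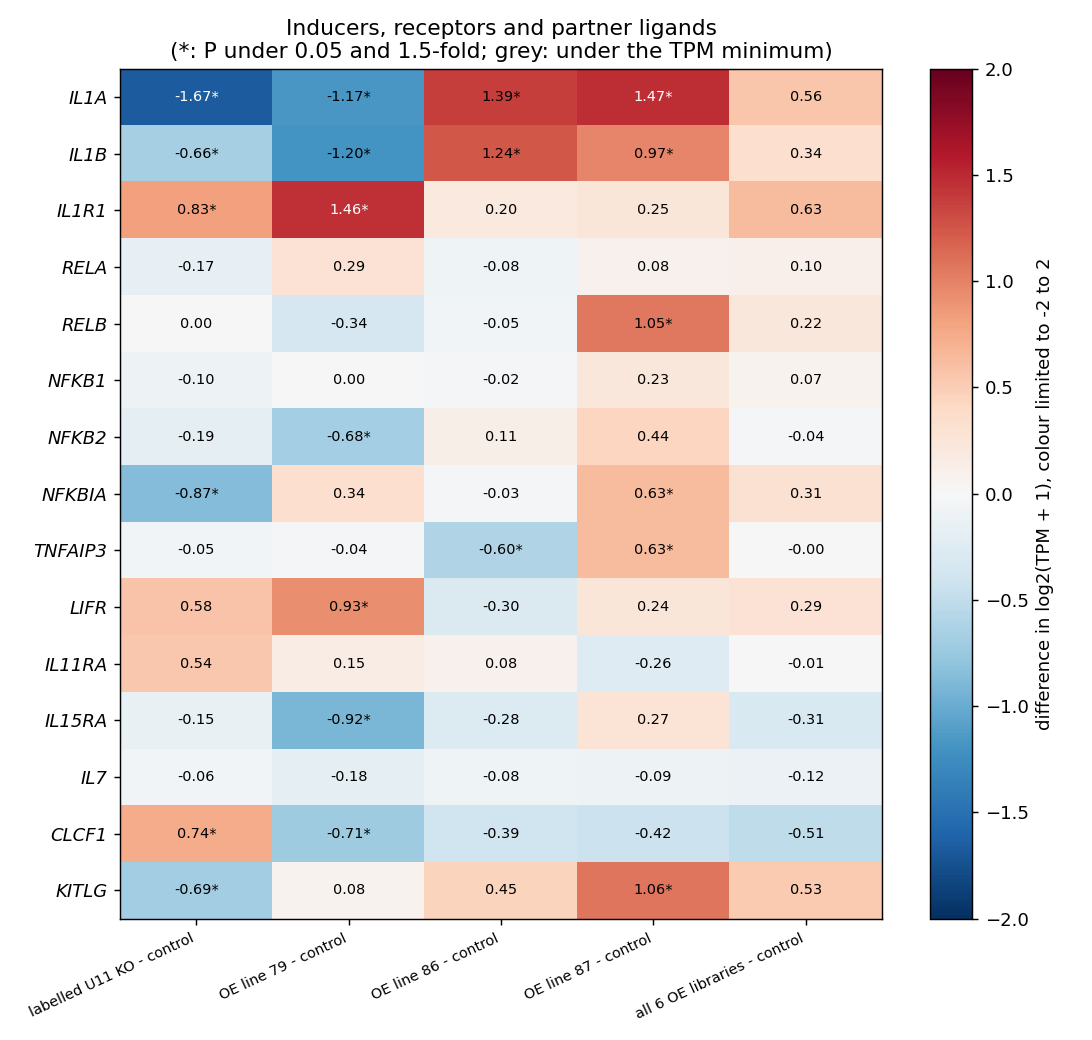
Differences from the controls of the same series in log2(TPM + 1) for tested inducers, receptors and partner ligands (rows) in 5 comparisons (columns), with colour limited to -2 to 2 and a star for P under 0.05 and 1.5-fold. IL1R1 was tested through its high groups alone. IL1A and IL1B were negative in the knockout comparison (-1.67 and -0.66) and in line label 79 (-1.17 and -1.20) and positive in line labels 86 and 87.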

How the data were processed

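RNA-seq gene tables of 12 T24 libraries were used. Per the study's methods, the authors trimmed reads with fastp, aligned them with Hisat2 to hg38 and summarised genes with Stringtie. The deposited tables give TPM scaled to the same total in every library, FPKM, and mean base coverage per gene, with no replicates pooled. The labels name polyA RNA, whereas the methods describe removal of ribosomal RNA. The tables hold no read counts, so read depth was not known and no counting interval was given. Coverage divided by FPKM implied 9.07 to 15.33 aligned gigabases per library.

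Groups followed the labels. Genes with at least 1 TPM in at least 2 compared libraries were fitted as log2(TPM + 1) in limma 3.58.1 (R 4.3.3) with a mean-variance trend, and P values were adjusted by the Benjamini-Hochberg method over all tested genes. The fold changes are on this scale, which understates changes of genes with low values. The 3 fits were checked on simulated data. All 10 members were named, and genes of the lists could be named when called or when they are receptors or ligands of a member. Members and lists were chosen with earlier results of these data known. Neither same-numbered libraries nor those of a library series were treated as pairs. Alternatives were another pseudocount, other filters, FPKM, median ratio scaling, no trend, a replicate block and leaving out each library. Protein-coding TPM (GENCODE 44 gene types) and leaving out a line label were added after the data were seen. The result of 1 gene of the receptor and ligand list is not reported here.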

Additional observations from a re-analysis of the deposited data

Results flagged for a closer look

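Differences between the overexpression line labels were marked for 5 members because the moderated F test of limma for equal line labels passed after adjustment over all genes. The adjusted P was 0.0002545 for LIF, 0.001028 for IL7R, 0.01211 for IL6, 0.02536 for CSF3 and 0.04268 for OSMR. LIF had mean TPM of 37.26, 108.9 and 42.09 in line labels 79, 86 and 87, IL7R of 84.12, 78.6 and 149.8, IL6 of 4.136, 4.206 and 9.027, CSF3 of 4.461, 14.72 and 3.808, and OSMR of 81.3, 73.8 and 63.51. Among the 6 labelled libraries no member had a single library standing apart by the ratio of its gap to the whole range at the 95% level.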

How the results depend on the processing

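With all 4 untreated libraries as controls, 1 member was called in the knockout comparison in place of 6, and 976 of all genes in place of 1688. LIF (-0.017), CSF1 (-0.323), IL15 (-0.013) and OSMR (-0.096) turned negative. That control group joins libraries of both series, whose TPM composition differs. Leaving out 1 library gave 3 to 5 called members there, and IL6ST ranged from -0.104 to 0.507. In the pooled overexpression comparison, 1 member was called with a pseudocount of 0.1 (CSF3), and 2 without the libraries of line label 86 (LIF and CSF3) or of 87 (CSF3 and IL7R), chosen after the data were seen. All genes called were 304 in the main fit with every library. Over the alternatives they ran from 26 (adjusted P) to 489 (without line label 86). Leaving out 1 library added calls in some cases, and CSF1 ranged from -0.241 to 0.065. In line label 79, 2 members were called with adjusted P or with FPKM, beside 888 and 790 of all genes in place of 1254. Leaving out 1 library changed the calls in each line label. In line label 87 CSF1 then ranged from -0.052 to 0.255, IL7R from -0.054 to 0.023 and IL15 from -0.015 to 0.121. Differences between line labels were called for 3 members with no filter, beside 1888 of all genes in place of 2530. They were called for fewer members than in the main fit when 1 library was left out. The replicate block was the replicate number in the knockout series and the library series in the overexpression series. With it, 6 members were called in the knockout comparison, 0 in the pooled overexpression comparison, 4 in line label 79 and 1 in line label 87. Counts of all genes are not given beside these. With the block, differences between line labels were called for 6 members in place of 5, beside 3074 of all genes in place of 2530. The rise in members thus came with a rise over all genes. In the knockout comparison the block left an adjusted P under 0.05 for IL7R (0.0422), and none of the 4 adjusted calls passed with no filter (IL7R 0.0754) or without the first (IL7R 0.139) or the second labelled library (IL7R 0.114). Over the alternatives the adjusted P reached 0.114 for LIF and 0.155 for CSF3 in line label 86 and 0.0537 for LIF in 87. Deviations correlated at 0.024 between same-numbered libraries of the knockout series and at 0.07 to 0.15 between libraries of the same library series in the overexpression comparison. Groups of 2 libraries limit every comparison, and a group left with 1 library was assumed to vary like the others.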

Other observations

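The untreated T24 libraries of both series can be set side by side only as levels, since their most abundant transcripts took unlike shares of TPM. When TPM was rescaled to protein-coding genes, mean levels were close between the controls of the knockout and the overexpression series for CSF1 (11.59 and 11.89). IL6 stood at 36.27 and 6.751, CSF2 at 5.894 and 0.0957, CSF3 at 8.122 and 2.275, and LIF at 101.0 and 73.98. IL15 stood at 2.993 and 6.155, OSMR at 54.74 and 71.67, IL7R at 127.5 and 160.0, IL11 at 106.5 and 125.0, and IL6ST at 108.4 and 55.82. No test was made of these differences.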
